A study of Mus musculus with 4 samples.

Results

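The Myc, Max and Mxd network was examined through 10 genes chosen by name: the activator genes Myc, Mycn and Mycl, the shared partner gene Max, and the repressor-type partner genes Mxd1, Mxd3, Mxd4, Mxi1, Mnt and Mga. All 10 were among the 24428 genes counted, and 9 passed the filter on low counts that kept 15763 genes for testing. Mxd4 did not pass it. The list was put together knowing that Myc was higher in the mutant cells and differed between the control libraries. The values of Myc are therefore given as a description, and its call in the fit is not read as a result. RNA-seq was made from mouse embryonic stem cells of strain 129SvEv at passage 15 to 20, grown untreated in serum with LIF. Smarca4 encodes the ATPase of the BAF chromatin remodelling complex. Both groups had 1 unmutated copy of it, marked with GFP, so the G784E cells were heterozygous. The copy marked with the V5 epitope was wild type in 2 libraries (WT) and carried the G784E change in 2 libraries (G784E). The question was how expression differs in cells with a mutation described as dominant-negative in the series title. Whether the libraries of a group came from separate cultures or clones is not given in the sources used here, so p-values measure only how far these libraries differ, which may be technical.

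Gene counts were 6226145 and 8895433 in the G784E libraries and 7027108 and 10083442 in the WT libraries. Levels are CPM (read counts scaled to library size) after TMM normalization, and a floor of 3 counts stood for 0.298 to 0.482 CPM before scaling. Smarca4 was at 3868 and 3580 CPM in G784E and 2423 and 2553 CPM in WT, counts that do not separate the alleles. Its log2 fold change of 0.58 (SE 0.19) missed the threshold of 0.05 (edgeR quasi-likelihood test, Benjamini-Hochberg adjusted p = 0.119). It passed with upper-quartile scaling, with DESeq2 and with limma-voom. Olfactory receptor genes, whose known site of use is the nose, took 684 to 685 CPM in the libraries numbered 1 and 193 to 282 CPM in those numbered 2. Embryonic stem cell markers were present in every library, among them Pou5f1 at 176 to 239 CPM and Nanog at 134 to 227 CPM.

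Proteins of this network bind DNA as pairs through a basic helix-loop-helix and leucine zipper region. Max pairs with itself and with each of the other families. Myc, Mycn and Mycl bound to Max recruit acetyltransferases and raise transcription of genes for ribosome production, nucleotide synthesis and growth. Mxd proteins, Mxi1 and Mnt compete for Max, bind the same DNA element and recruit the Sin3 corepressor with histone deacetylases. Mga, which also has a T-box domain, places Max in a Polycomb complex that silences germline genes. In embryonic stem cells Myc is known as a target of LIF and STAT3 signalling, and Myc and Mycn can stand in for each other.

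The common element is the E-box with the letters CACGTG, which read the same on both strands. RefSeq promoter windows of build GRCm38.p6, from 250 bases before to 50 bases after a start, were found for 9 of the 10 genes. Myc had no entry. Those of Max, Mxd4 and Mnt held the E-box, which is 3 of 9 genes with 11 windows. The motif was present for 8.09% of all 27025 genes and in 7.15% of all 32851 windows. The sites are shown because they are the element that the proteins of these same genes bind. They are written 5′ to 3′ along the gene's strand, with the E-box in capitals and 12 bases on each side.
Max, chr12:76962234-76962263, minus strand: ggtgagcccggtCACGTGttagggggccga
Mxd4, chr5:34187912-34187941, minus strand: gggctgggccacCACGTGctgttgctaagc
Mnt, chr11:74830789-74830818, plus strand: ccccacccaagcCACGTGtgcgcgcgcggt
The E-box began 3 bases before the start of Max, 123 before that of Mnt and 219 before that of Mxd4. A match of letters is a description of the window. Binding was not measured in these libraries.

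In WT cells the network RNA was dominated by Max, Mga and Mycn, and in G784E cells Myc joined them. Levels were compared between genes as CPM per kb of exon, using GENCODE M21 exon lengths. Max was highest in both groups, at 121 ± 12.1 CPM per kb in WT and 160 ± 5.18 in G784E (SD, n = 2 here and throughout). In WT it was followed by Mga (60.8 ± 16.6) and Mycn (58.8 ± 4.91), which did not differ beyond their spread, and then by Myc (32.8 ± 14.4). In G784E, Myc (92.0 ± 2.91) and Mga (86.4 ± 22.3) came next and lay within their spread, with Mycn behind them at 51.9 ± 0.0797. Mnt, Mxi1 and Mycl formed a lower tier, at 8.87 ± 0.182, 7.14 ± 0.539 and 3.46 ± 0.372 CPM per kb in WT and 10.7 ± 1.63, 5.73 ± 0.592 and 3.01 ± 0.560 in G784E. Mxd1 and Mxd3 were between 1.22 and 2.15 CPM per kb in every library, and Mxd4 was lowest at 0.204 to 0.421. By its mean, Myc stood in the fourth place in WT and in the second in G784E, where Mga was above it in replicate 2 (102 against 90.0 CPM per kb). By the means, the rank of each of the 6 lowest genes was the same in both groups.

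**Figure D1:**
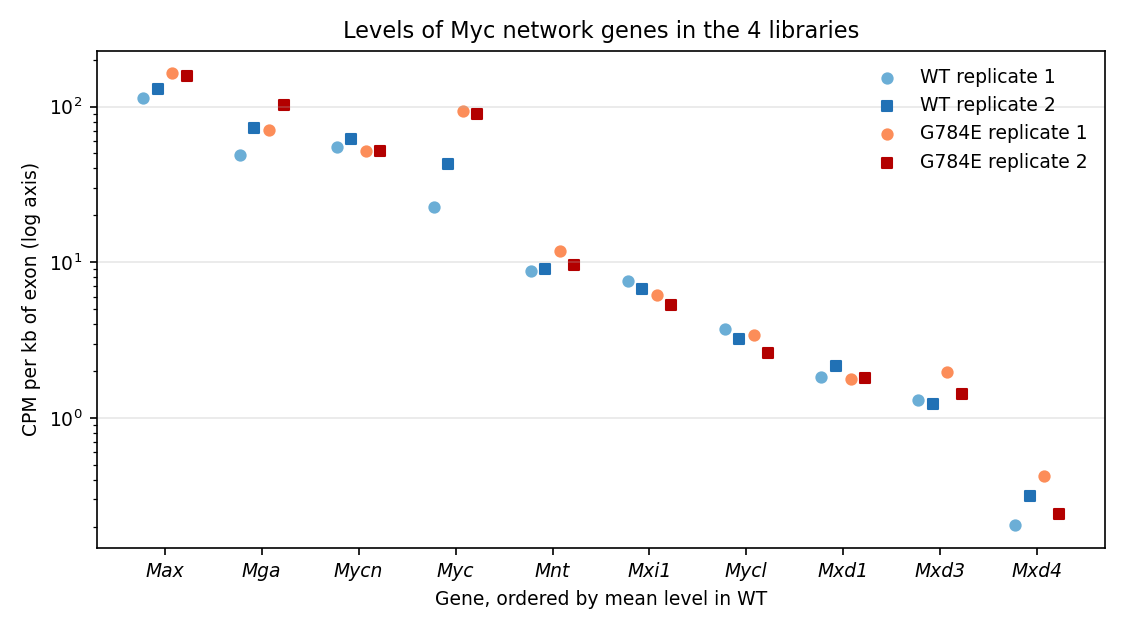
Level of each of the 10 genes in each library, as CPM per kb of exon on a log axis, with genes ordered by their WT mean; circles are replicate 1 and squares replicate 2, blue for WT and red to orange for G784E. Myc is the gene whose 4 points spread most, from 22.7 in WT replicate 1 to 94.1 in G784E replicate 1.

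Myc, the proto-oncogene that gives the network its name, stood at 230 and 220 CPM in G784E and at 55.5 and 105 CPM in WT. The G784E libraries were close to each other and both lay above both WT libraries. The mean was 2.80-fold higher in G784E (80.4 ± 35.2 to 225 ± 7.12 CPM; log2 fold change 1.48, SE 0.24). The size of the difference depended on which WT library was used. G784E replicate 1 was 4.15-fold above WT replicate 1, and G784E replicate 2 was 2.09-fold above WT replicate 2. Without WT replicate 1 the log2 fold change was 1.09, and without WT replicate 2 it was 2.05. Myc was the 1 member of 9 tested that edgeR called higher at an adjusted p under 0.05, and none was called lower. Over all tested genes, 2.56% were called, 0.672% higher and 1.89% lower. Since the list was built around this gene, nothing is read from that count.

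Mycn, the family member used most in early embryo and neural progenitors, did not pass the test. It was at 146 and 145 CPM in G784E and at 155 and 175 CPM in WT (log2 fold change -0.18, SE 0.20; edgeR, adjusted p = 0.895). The lower WT library lay above both G784E libraries by less than the distance between the WT libraries. Mycl, at 12.4 and 9.54 CPM in G784E and 13.6 and 11.7 CPM in WT, had overlapping groups (log2 fold change -0.21, SE 0.32; edgeR, adjusted p = 0.962). Neither estimate went in the direction of Myc.

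The make-up of the family therefore differed between libraries mainly through Myc. Per kb of exon, Myc made up 62.9% and 62.3% of the summed Myc, Mycn and Mycl level in G784E, 39.7% in WT replicate 2 and 27.7% in WT replicate 1. Mycn made up 34.8% and 35.9% in G784E and 57.4% to 67.7% in WT. Mycn was thus the larger share in both WT libraries and Myc in both G784E libraries. In WT replicate 1, Mycn was 2.44-fold above Myc per kb, and in WT replicate 2 1.45-fold above it. In the G784E libraries Myc was 1.81-fold and 1.73-fold above Mycn. The summed level was 149 and 144 CPM per kb in G784E and 81.7 and 108.5 in WT. These shares carry the Myc values that chose the gene and are given without a test.

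**Figure D2:**
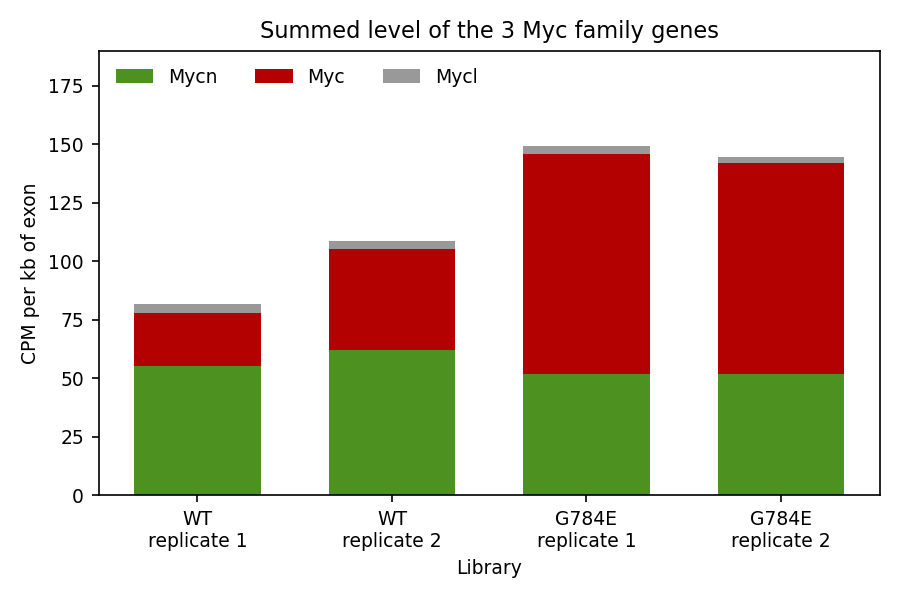
Stacked level of Mycn, Myc and Mycl per kb of exon in each library. The Mycn segment stays between 51.9 and 62.3 CPM per kb, and the Myc segment runs from 22.7 in WT replicate 1 to 94.1 in G784E replicate 1.

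Max, the shared partner of the other members, was at 320 and 306 CPM in G784E and at 221 and 254 CPM in WT. The groups did not overlap, and the difference between their means exceeded the distance between the libraries of either group. The log2 fold change was 0.40 (SE 0.20) and did not pass (edgeR, adjusted p = 0.453). Within the libraries numbered 1 the ratio was 1.45, and within those numbered 2 it was 1.20.

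Mga, the largest protein of the network, showed another pattern. It was at 984 and 1424 CPM in G784E and at 683 and 1010 CPM in WT, so that G784E replicate 1 lay below WT replicate 2 and the groups overlapped. The log2 fold change was 0.51 (SE 0.22; edgeR, adjusted p = 0.343). In each group, replicate 2 lay above replicate 1 by nearly the same ratio, 1.48 in WT and 1.45 in G784E. Set against the library of the same number, G784E was 1.44-fold higher in replicate 1 and 1.41-fold higher in replicate 2. The olfactory receptor counts divide the libraries by the same numbers, with the higher values in replicate 1. Their part in the Mga values was not tested.

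Among the competitors that recruit Sin3, none passed the test, and their estimates went both ways. Mnt, the most widely expressed Myc antagonist, was at 54.5 and 43.9 CPM in G784E and 40.1 and 41.3 CPM in WT (log2 fold change 0.27, SE 0.22; edgeR, adjusted p = 0.784). Mxi1 was lower in both G784E libraries, at 40.9 and 35.3 CPM against 50.05 and 45.0 CPM in WT (log2 fold change -0.32, SE 0.22; edgeR, adjusted p = 0.70). Mnt and Mxi1 thus had estimates of opposite sign, each smaller than 2 of its SEs. Mxd1, a factor of terminal differentiation, was at 8.34 and 8.36 CPM in G784E and 8.58 and 10.1 CPM in WT (log2 fold change -0.16, SE 0.37; edgeR, adjusted p = 0.992). Mxd3 held only 16 counts in each G784E library and 13 and 16 in WT, and its log2 fold change of 0.42 had an SE of 1.05 (edgeR, adjusted p = 0.994). At these counts its estimate was imprecise.

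Mxd4 held 10 and 8 counts in G784E and 6 and 12 counts in WT. Its level of 0.792 to 1.64 CPM was at or near that of genes these cells are not known to use. The 95th percentile of 1125 olfactory receptor genes was 2.13 and 1.04 CPM in G784E and 1.85 and 0.711 CPM in WT, above Mxd4 in every library but WT replicate 2. Mxd3, at 1.62 to 2.62 CPM, lay above that percentile in every library but WT replicate 1. Mxd1 lay above every olfactory receptor gene in every library. These placements compare CPM that was not divided by exon length, so they do not place the genes per kb.

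**Figure D3:**
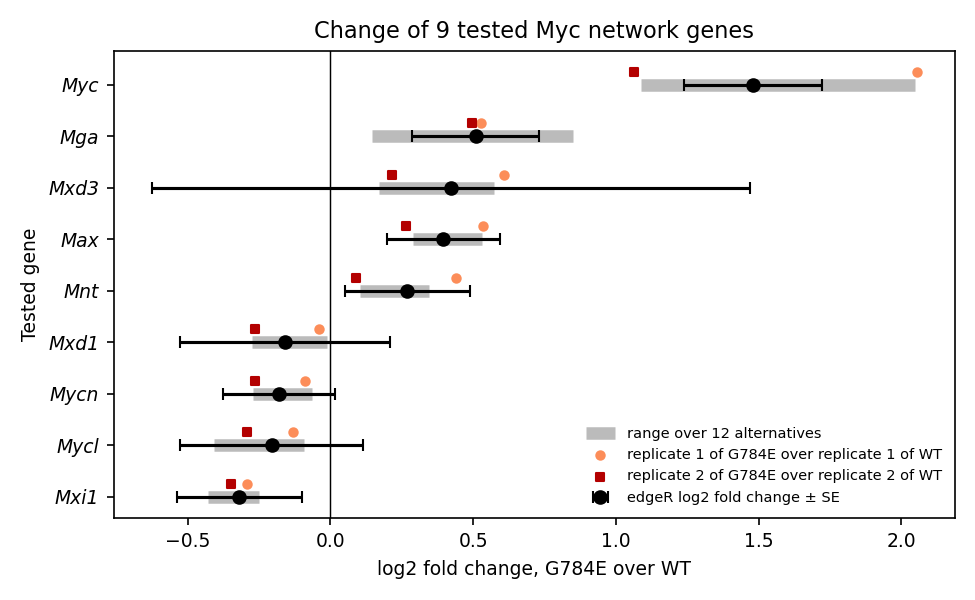
Change of the 9 tested genes between G784E and WT on the log2 scale: black points with bars are the edgeR estimate and its SE, grey bands the range over 12 alternative analyses, and coloured points the ratio within libraries of the same replicate number. Myc lies apart at 1.48, and the other 8 run from -0.32 (Mxi1) to 0.51 (Mga).

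Apart from Myc, the 8 other tested genes had log2 fold changes between -0.32 and 0.51 and adjusted p-values (edgeR) between 0.343 and 0.994. With Myc counted, the median over the 9 tested genes was 0.27, with 5 estimates above 0 and 4 below. That over all tested genes was 0.00 when rounded. Since Myc is the gene the list was built around, nothing is read from that contrast. Of the 9, the G784E libraries lay wholly above the WT libraries for Myc, Max, Mnt and Mxd3 and wholly below for Mycn, Mxi1 and Mxd1. Over all tested genes, 38.8% had groups that did not overlap, 19.4% wholly above and 19.4% wholly below.

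The WT libraries were then set against each other. Each side is 1 library, so there is no test and intervals cover counting error only. Myc was 1.90-fold higher in WT replicate 2 than in WT replicate 1 (exact 95% interval 1.69 to 2.13, from 420 and 1037 counts). Between the G784E libraries the ratio of replicate 2 to replicate 1 was 0.956 (0.892 to 1.03). Of the 9 tested members, Myc was the 1 past 1.5-fold between the WT libraries, and none was past it between the G784E libraries. In the WT pair, 30.8% of all tested genes were past 1.5-fold, 6.63% higher in replicate 2 and 24.2% lower. In the G784E pair the share was 37.1%, with 11.1% higher and 26.0% lower. Most of these genes were low. Among the 6302 tested genes with a mean of at least 20 CPM, 3.94% were past 1.5-fold in the WT pair (3.3% higher, 0.635% lower) and 9.19% in the G784E pair (7.54% higher, 1.65% lower). The ratio of Myc was further from 1 than that of 99.7% of these 6302 genes in WT, and than that of 13.9% in G784E. That difference is the one for which Myc was singled out.

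The other tested members differed less between the WT libraries. Mga was next with a ratio of 1.48 (1.43 to 1.53), and Max and Mycn were at 1.15 (1.08 to 1.23) and 1.13 (1.04 to 1.21). These ratios lean on the scaling. With upper-quartile scaling the log2 ratio fell from 0.20 to 0.05 for Max, from 0.17 to 0.02 for Mycn and from 0.56 to 0.41 for Mga, while that of Myc went from 0.92 to 0.77. Genes of at least 20 CPM as a whole had a median log2 ratio of 0.17 in the WT pair. Mnt (1.03; 0.885 to 1.20) and Mxi1 (0.899; 0.782 to 1.03) had intervals that held 1, as did Mycl, Mxd1 and Mxd3. Mxd4, which was not tested, had a ratio of 1.54 from 6 and 12 counts, with an interval of 0.534 to 4.99. Between the G784E libraries Mnt was lower in replicate 2 (0.806; 0.694 to 0.938), and the intervals of Mycn, Max and Mxi1 held 1.

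**Figure D4:**
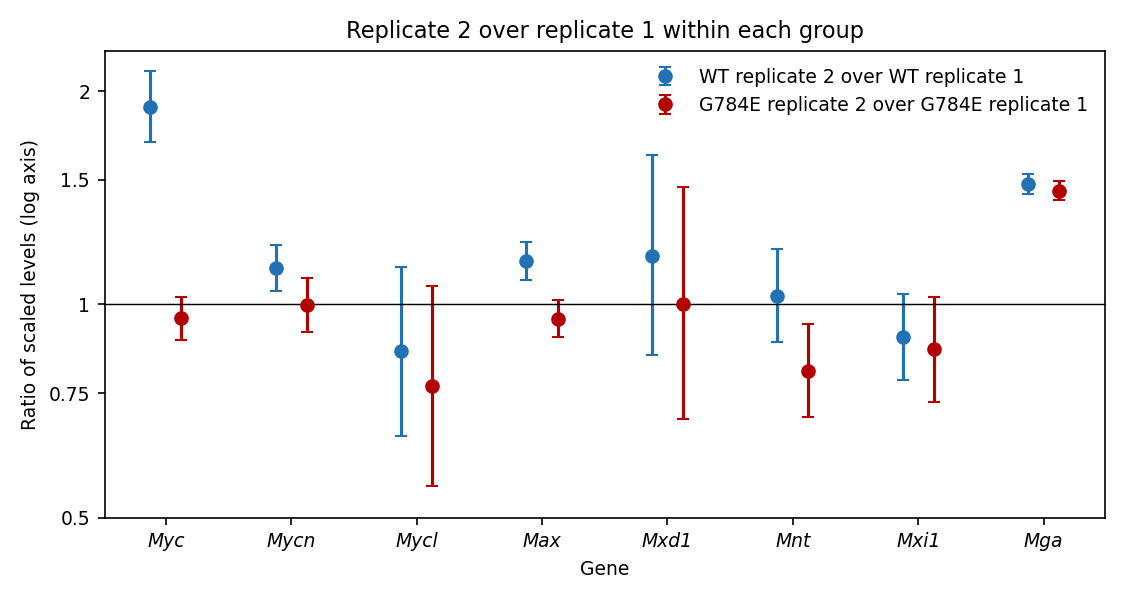
Ratio of replicate 2 to replicate 1 within WT (blue) and within G784E (red) on a log axis, without the low-count genes Mxd3 and Mxd4, with exact 95% intervals for counting error. Myc is at 1.90 in WT and 0.956 in G784E, whereas Mga is at 1.48 and 1.45.

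Which genes followed Myc across the 4 libraries was asked by the distance between mean-centred log2 CPM profiles, over 6170 genes with a mean of at least 20 CPM. The nearest was Zcwpw1, which encodes a histone reader of meiosis, at 31.4 and 26.7 CPM in G784E and 7.66 and 14.6 CPM in WT (distance 0.16). Ina, the gene of the neuronal filament protein internexin, was almost as near (0.17), at 95.9 and 105 CPM in G784E and 26.3 and 45.4 CPM in WT. Their ratios between the WT libraries were 1.91 and 1.73, near that of Myc, which follows from choosing them by these same values. Csrnp2, the titin gene Ttn and the zinc finger gene Zfp423 followed at distances of 0.46, 0.47 and 0.47. The median distance was 1.64. Of the members with enough reads, Mga (1.16), Max (1.27) and Mnt (1.45) were nearer than that median, and Mycn (1.82) and Mxi1 (2.03) were farther. With 4 libraries and this many genes, near profiles of this kind are a description.

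Genes around the network were read from lists of textbook members, described by their counts and medians. Over all tested genes, 0.672% were called higher. Of 6 tested genes of the extended network, Mlxipl rose. It encodes the glucose-responsive factor ChREBP, which pairs with Mlx. It stood at 12.1 and 16.1 CPM in G784E and 5.28 and 4.67 CPM in WT (log2 fold change 1.51, SE 0.37; edgeR, adjusted p = 0.0229). The call was lost with upper-quartile scaling (edgeR, adjusted p = 0.0513) and with DESeq2 (adjusted p = 0.061). It was also lost when G784E replicate 2 was left out (1.21, edgeR adjusted p = 0.20), and when either WT library was (1.59 without replicate 1 and 1.45 without replicate 2, edgeR adjusted p = 0.135 and 0.25). Its partner gene Mlx had a log2 fold change of -0.32 (SE 0.28) and the paralogue Mlxip one of 0.19 (SE 0.20), and neither passed. Bmyc, a rodent relative of Myc, was at 19.1 and 11.9 CPM in G784E and 13.2 and 12.1 CPM in WT (0.29, SE 0.31), so that its groups differed by less than the spread within G784E.

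None of the 20 cofactor and turnover genes, the 19 Sin3 and deacetylase genes or the 12 genes of the Mga Polycomb complex passed the test. Over all tested genes 2.56% were called, so nothing is read from the lack of calls in lists of this size. Their median log2 fold changes were 0.24, 0.17 and 0.08. At an unadjusted p in edgeR under 0.05 there were 4 of 20, 1 of 19 and 1 of 12 genes, against 1831 of 15763 over all tested genes. Over those of at least 20 CPM, where most of the listed genes lie, it was 1129 of 6302. Next to Myc in the genome, the non-coding gene Pvt1 was at 31.7 and 58.5 CPM in G784E and 43.4 and 59.2 CPM in WT (log2 fold change -0.18, SE 0.25; edgeR, adjusted p = 0.949). Pvt1 thus did not show the difference seen for Myc.

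Of 56 tested growth genes known as Myc targets, none passed, and 50 had estimates above 0. Over all tested genes 0.672% were called higher, so nothing is read from the lack of calls among 56. Their median log2 fold change was 0.24, against 0.00 over all tested genes and 0.04 over those of at least 20 CPM, of which 55.8% were above 0. By edgeR, 15 of the 56 had an unadjusted p under 0.05, against 1831 of 15763 over all tested genes and 1129 of 6302 over those of at least 20 CPM. Between the WT libraries, which differ in Myc, 47 of the 56 were higher in replicate 2, with a median log2 ratio of 0.18. All genes of at least 20 CPM were higher there in 77.6% of cases, with a median of 0.17.

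A second list of 20 Myc targets had a median of 0.07, with no gene called higher and 2 called lower. Over all tested genes, 0.672% were called higher and 1.89% lower. Ccnd2, which encodes cyclin D2, was at 51.3 ± 9.27 CPM in WT and fell to 23.1 ± 5.14 in G784E (-1.15 on the log2 scale, SE 0.24; adjusted p = 0.00681 in edgeR). Id2, a helix-loop-helix inhibitor, fell to 2.78 and 0.825 CPM in G784E against 11.9 and 11.3 CPM in WT (-2.73 on the log2 scale, SE 0.54; adjusted p = 0.00403 in edgeR). Without WT replicate 2 both calls were lost (-0.92 and -2.72; edgeR, adjusted p = 0.256 and 0.0544). Of 10 tested genes that Myc is known to repress, Klf6, a zinc finger factor, was at 155 ± 19.9 CPM in WT and fell to 88.9 ± 7.99 in G784E (-0.80 on the log2 scale, SE 0.20; adjusted p = 0.0312 in edgeR). With RLE scaling the Klf6 call was lost (adjusted p = 0.0519), as it was on leaving out G784E replicate 1 (-0.72, adjusted p = 0.14). Leaving out either WT library also ended it, at -0.93 without the first and -0.63 without the second (edgeR, adjusted p = 0.082 and 0.528). In that list 1 of 10 estimates was above 0, against 49.9% of all tested genes, and the median was -0.25.

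**Figure D5:**
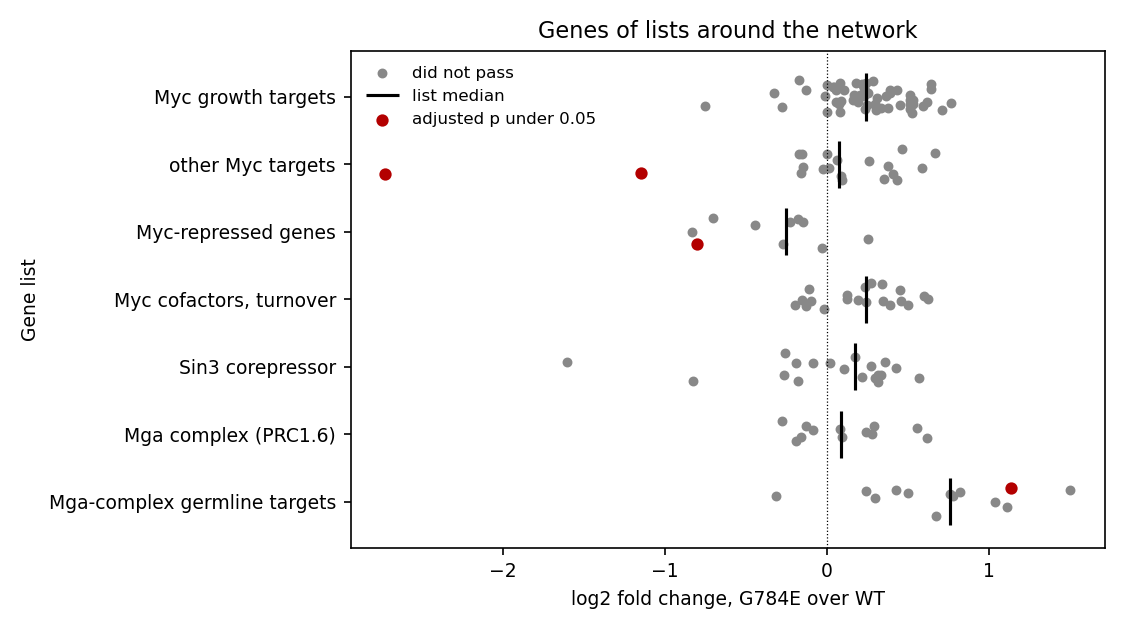
Log2 fold change (G784E over WT) of every tested gene in 7 lists around the network; black ticks are list medians and red points the genes past an adjusted p of 0.05. The growth targets lie mostly to the right of 0 with a median of 0.24 and no red point, and the called genes are Ccnd2, Id2, Klf6 and Ddx4.

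Germline genes that the Mga complex is known to silence lay to the other side of 0 from the repressed genes. Of 13 tested, 12 had estimates above 0, against 49.9% of all tested genes, with a median of 0.76. The list was chosen with a rise of germline genes in these data known, so its direction is not independent evidence. Ddx4, the Vasa RNA helicase gene, was at 16.5 ± 0.928 CPM in WT and rose to 36.1 ± 4.36 in G784E (1.13 on the log2 scale, SE 0.24; adjusted p = 0.00883 in edgeR). Without either WT library the Ddx4 call was lost (1.07 and 1.22; edgeR, adjusted p = 0.205 and 0.0832). Most of these genes stood under 10 CPM in WT.

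Serum-induced early genes were read because Myc is itself one. Cyr61 and Ctgf, matricellular protein genes, were at 109 ± 3.46 and 124 ± 2.96 CPM in WT and fell to 39.4 ± 2.87 and 46.3 ± 4.46 in G784E (-1.47 and -1.43 on the log2 scale, SE 0.21 each; adjusted p = 8.83e-05 and 0.000117 in edgeR). The other 18 of 20 tested did not pass, and over all tested genes 1.89% were called lower. The list had a median log2 fold change of -0.20. Egr1 was at 43.2 and 43.6 CPM in G784E and 52.7 and 57.0 CPM in WT (log2 fold change -0.34, SE 0.21). Between the WT libraries the list had a median log2 ratio of -0.01, with 10 of 20 genes higher in replicate 2. Between the G784E libraries the median was -0.45, with 4 of 20 higher in replicate 2. Over all tested genes these medians were 0.01 and -0.02, with 50.9% and 48.6% higher in replicate 2.

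Markers of primitive endoderm, and some of trophectoderm, were lower in G784E. The 12 primitive endoderm markers summed to 3883 and 4238 CPM in WT and to 351 and 349 CPM in G784E, and 10 of them were called lower. Over all tested genes, 1.89% were called lower. Cubn, which encodes an endocytic receptor of visceral endoderm, was at 378 ± 40.6 CPM in WT and fell to 14.7 ± 1.56 in G784E (-4.68 on the log2 scale, SE 0.24; adjusted p = 1.02e-11 in edgeR). Of 8 trophectoderm markers, summing to 118 and 123 CPM in WT and 76.1 and 64.6 CPM in G784E, 3 were called lower. Estimates of 2 of the 8 were above 0. Of 10 feeder fibroblast markers 7 were tested and none passed. All 10, tested or not, summed to 83.9 and 56.9 CPM in WT and 90.3 and 76.6 CPM in G784E. None of 10 stem cell markers passed. With 2.56% of all tested genes called in either direction, nothing is read from the lack of calls in these short lists. No marker of these lists was at 0 in all libraries. Between the WT libraries the endoderm markers had a median log2 ratio (replicate 2 over replicate 1) of 0.07 and the fibroblast markers one of -0.63. Between the G784E libraries these medians were 0.08 and 0.16. Most tested fibroblast markers stayed under 10 CPM. In WT replicate 2, 24.2% of all tested genes were past 1.5-fold lower, against 0.635% of those of at least 20 CPM. The median of -0.63 is therefore not read as a difference in fibroblast content. In bulk RNA, fewer cells of a type and less RNA per cell cannot be told apart, and the part of these markers in the Myc differences was not tested.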

How the data were processed

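Poly(dT)-selected RNA was sequenced from 4 libraries, 2 per group. The authors deposited 1 table of raw read counts per gene for each library. The submitters' processing notes list CASAVA 1.8.2, Bowtie2 2.1.0, HTSeq, DESeq2 and build mm9. Whether counting used strand is not given in the sources used here. Summary rows that name no gene took 83.3 to 88.7% of reads (not unique 55.4 to 61.8%, no feature 26.5 to 29.5%) and were left out. Rn45s, a ribosomal RNA gene, took 10.0 to 16.0% of gene counts. The depth and the number of libraries limit precision, and intervals (exact Clopper-Pearson, 95%) and floors cover counting error only, since reads carry no molecular identifiers.

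Counts were filtered with filterByExpr (minimum count 10, total 15), scaled by TMM and tested with edgeR 4.0.16 in R 4.3.3 by the quasi-likelihood test on group, with Benjamini-Hochberg adjustment over 15763 genes and a threshold of 0.05. The fit had 2 residual degrees of freedom and a common biological coefficient of variation of 0.317. The code was also run on simulated counts with less spread between libraries than in these data. That run therefore does not measure how well the fit performs here. Alternatives tried were DESeq2 1.42.0, limma-voom (limma 3.58.1), scaling by RLE or upper quartile, a replicate block, no filter on low counts or a stricter one (a total of 50 counts, and 1 CPM or more in 2 libraries), leaving out each library, and leaving out Rn45s, the last chosen after seeing the data. Exon lengths and promoters are of GRCm38, not the authors' build, and were matched by symbol.

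The members and lists were chosen with earlier results of these data known. Named genes are the 10 members, up to 2 called genes per list and direction, the 5 nearest profiles to Myc (without clone-type symbols such as Gm or Rik) and Smarca4. Beside them, Mlx, Mlxip, Bmyc, Pvt1, Egr1 and the stem cell markers were picked for their roles after their values were seen.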

Additional observations from a re-analysis of the deposited data

How the results depend on the processing

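The comparison of G784E with WT called 404 genes (106 higher, 298 lower), and 368 to 550 over the 7 other settings that kept all libraries and no block: RLE and upper-quartile scaling, no filter, the stricter filter, DESeq2, limma-voom and leaving out Rn45s. Leaving out 1 library gave 176 (without WT replicate 1), 215 (without WT replicate 2), 493 (without G784E replicate 1) and 740 genes (without G784E replicate 2), with the variance of the lone library taken from the remaining pair. Libraries of the same replicate number share only a number in the labels. Their deviations from the group means correlated across genes (r = 0.487 over 15763 genes, which are not independent replicates), and the fit with a replicate block called 1204 genes (546 higher, 658 lower). Among the members, the replicate block raised the number called from 1 to 3, adding Max (log2 fold change 0.40, adjusted p = 0.0255) and Mga (0.51, adjusted p = 0.000436). Of the other genes followed through every setting (Smarca4 and the called genes of the lists), Smarca4 also passed with the block (0.58, adjusted p = 1.59e-05), and the block changed no other call among them. Under the other settings the 1 member called was Myc, the gene the list was built around, so nothing is read from that count. The log2 fold change of Myc ran from 1.09 to 2.05 over 12 alternatives, and no tested member changed sign. The count of genes past 1.5-fold between the WT libraries, 4854, was 2931 at 2-fold. Library total scaling moved the WT log2 ratios much as upper-quartile scaling did, to 0.06 for Max and 0.42 for Mga. The causes were not tested.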
